A study of Homo sapiens with 6 samples.

Results

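The mitochondrial genome encodes a small set of RNAs, and all 37 of its genes were taken here from the 58735 genes of the count table by 1 rule, a position on the mitochondrial chromosome. They comprise 13 mRNAs, 2 rRNAs and 22 tRNAs; 28 lie on the plus strand of the reference and 9 on the minus strand. Counts came from 6 mRNA sequencing libraries of MOLM-13, an established human acute myeloid leukaemia line with a rearranged KMT2A gene, labelled WT in genotype. The control group (n = 3) was left untreated and the other group (n = 3) received 3.5 nM of 8p, a synthetic compound that inhibits the kinases RET and CDK8 by its label. The IC50 given for 8p is 7 nM. Both groups were kept for 48 hours in the same medium with fetal bovine serum. The series describes the cultures as independent biological replicates, and the labels do not say whether controls received the solvent of 8p. The comparison asks which transcripts differ after exposure to 8p.

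Mitochondrial DNA is transcribed on both strands as long precursors that span nearly the whole circle. Most tRNA genes sit between the rRNA and mRNA genes, and cutting at the tRNA ends releases the other RNAs. The mRNAs encode membrane subunits of respiratory complexes I, III and IV and of ATP synthase (complex V), the rRNAs build the mitochondrial ribosome, and the tRNAs serve it. All of the remaining subunits, and the enzymes that copy, cut and degrade these RNAs, are encoded in the nucleus.

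Control libraries held 18834611 to 23485628 counts and 8p libraries 14972069 to 16210861. The library of 8p replicate 2 stood apart from the other 8p libraries: across genes, the chi-square per degree of freedom was 21.4 and 21.2 against 8p replicates 1 and 3, and 3.03 between those. Among controls, replicate 3 stood apart to a lesser degree, with 10.1 and 10.9 against replicates 1 and 2, and 3.92 between those. Of 11 markers of a monocytic leukaemia line, 9 reached 1 CPM (a count scaled to a common library size with TMM factors) in every library, with a summed level of 2030 to 2150 CPM in controls and 5050 to 5630 CPM with 8p; of the 10 tested, 6 were higher and 3 lower. All 4 erythroid markers were without a count, as were EPCAM, KRT19 and COL1A2. The epithelial and fibroblast markers summed to 0.218 to 0.801 CPM in controls and 25.8 to 37.8 CPM with 8p, with 1 of 5, COL1A1, tested and higher. COL1A1 missed the low-count filter's minimum of 0.571 CPM in a control library and passed through the 8p libraries. Entry by this route favours genes that are higher with 8p. T and NK cell markers summed to 20.8 to 24.6 CPM and 29.2 to 38.1 CPM, with 1 of 2 tested genes higher and 1 lower. B cell markers summed to 1.35 to 1.64 CPM and 1.5 to 2.29 CPM, and the pair of megakaryocyte markers stayed at or below 0.675 CPM. The part of these lists in the mitochondrial differences was not tested.

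Mitochondrially encoded RNAs made up a larger part of each 8p library than of any control library. Control replicates 1 to 3 had 1.91%, 1.76% and 1.64% of their counts on these genes, against 10%, 6.42% and 9.98% in 8p replicates 1 to 3. The groups did not overlap, and 8p replicate 2 lay between the controls and the other 8p libraries. The mean share was 1.77% ± 0.132 in controls and 8.80% ± 2.07 with 8p (SD, n = 3; two-sided exact permutation p = 0.1, the smallest that 3 against 3 libraries allow).

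The classes of RNA contributed unequally. mRNAs went from 1.45% ± 0.118 to 5.33% ± 1.61 of all counts, with 3.46% in 8p replicate 2. rRNAs went from 0.310% ± 0.0179 to 3.43% ± 0.441, with 2.92% in 8p replicate 2. tRNAs went from 0.0120% ± 0.00107 to 0.0488% ± 0.0159. For each of these 3 classes the groups did not overlap (exact permutation p = 0.1). A share rises when nuclear transcripts fall as well as when mitochondrial RNA rises, and a larger amount per cell cannot be told apart here from less nuclear RNA per cell.

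**Figure D1:**
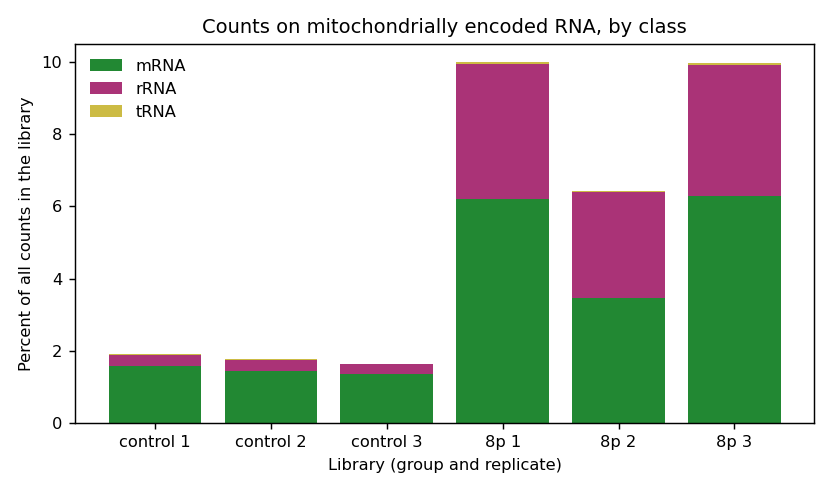
Percent of all counts on mitochondrially encoded mRNA, rRNA and tRNA in each of the 6 libraries, as stacked bars. The control bars lie between 1.64% and 1.91%, the 8p bars at 10%, 6.42% and 9.98%; the tRNA layer is barely visible at this scale.

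Of the 37 genes, 33 had enough counts to be tested, and 32 of these were higher with 8p while none was lower (edgeR quasi-likelihood test, Benjamini-Hochberg adjusted over 13822 genes, called under 0.05). Among all genes tested, 37.9% were called higher and 36.9% lower, and 74.7% were called in either direction. At an unadjusted p under 0.05 the number of members lower was also 0, as it was with DESeq2 and with limma-voom. The low-count filter has to be read beside this count. Of the 33, a set of 9 tRNAs reached its minimum in each 8p library but not in each control. Entry by this route favours genes that are higher with 8p. Of the 24 that reached the filter's minimum of 10 counts, scaled to library size, in all 3 control libraries, 23 were higher, and the exception was MT-TH. In 32 of the 33 every 8p library lay above every control library, a pattern found in that direction in 38.9% of all genes tested. The exception was again MT-TH, so the pattern held for 23 of the 24. For the 9 tRNAs the route of entry favoured it.

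The ribosomal RNAs had the largest fold changes among the 24 members that reached the filter's minimum in all controls. MT-RNR1 (ENSG00000211459; GRCh38 mitochondrial chromosome, 648 to 1601, plus strand), the 12S RNA of the small ribosomal subunit, stood at 582, 632 and 635 CPM in the controls and at 8339, 5475 and 7974 CPM with 8p, here and below in the order of replicates 1 to 3. All 8p values lay far above the controls, with replicate 2 the lowest of them. The log2 fold change was 3.56 (SE 0.14, edgeR adjusted p = 3.53e-12). MT-RNR2 (ENSG00000210082; 1671 to 3229, plus strand), the 16S RNA of the large subunit, went from 2567, 2580 and 2328 CPM to 29582, 22908 and 28617 CPM. Its 8p libraries were again apart from the controls, with a log2 fold change of 3.44 (SE 0.11, edgeR adjusted p = 8.01e-13). The count ratio of MT-RNR1 to MT-RNR2 was 0.227, 0.245 and 0.273 in controls and 0.282, 0.239 and 0.279 with 8p, so the groups overlapped in it.

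The fold changes of both rRNAs lay above those of all 13 mRNAs. The count ratio of rRNA to mRNA, which does not depend on library scaling, was 0.202, 0.225 and 0.216 in controls and 0.602, 0.844 and 0.575 with 8p. Here 8p replicate 2 was the highest library. The difference was 1.63 on the log2 scale (SE 0.18; two-sided exact permutation p = 0.1, the smallest possible, and 0.175 adjusted over the 7 ratios computed), and 1.46 without 8p replicate 2.

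How an RNA ends bears on which RNAs an mRNA library holds. For enrichment of mRNA the labels offer poly(A) capture or removal of rRNA, without saying which was used, and the extraction they describe is that of DNA. Mitochondrial rRNAs carry short tails, most mRNAs longer ones, and MT-ND6 mRNA largely lacks a tail. Among 19 structural RNAs of nucleus and cytoplasm that have no poly(A) tail, only SNORD3A and RN7SL2 had enough counts to be tested. SNORD3A, a nucleolar RNA of rRNA processing, went from 0.137 ± 0.136 to 4.03 ± 0.552 CPM, and RN7SL2, an RNA of the signal recognition particle, from 24.6 ± 3.68 to 50.2 ± 3.56 CPM; both were called higher, SNORD3A having passed the filter through the 8p libraries. The summed level of the 19 was 22.4 to 29 CPM in controls and 51.1 to 58.8 CPM with 8p. The part of RNA selection in the rise of the rRNAs was not tested.

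All 13 mRNAs were higher with 8p, by log2 fold changes from 1.14 (MT-CO3) to 2.91 (MT-ATP8), with a median of 1.97 against a median of 0.03 over all genes tested. Their ends illustrate the economy of this genome. In 6 of the 13 the annotated gene stops at T or TA after the last full codon. In these the poly(A) tail completes the stop codon. The other 7 end in a full triplet as annotated, though the last base of MT-ATP6 is also the first of MT-CO3. The last 30 bases of 5 genes are shown for this reason, 5′ to 3′ on each gene's own strand (GENCODE release 29, GRCh38), with the bases after the last sense codon in capitals.
MT-ND1 (chrM:4233-4262, plus): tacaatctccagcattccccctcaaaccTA
MT-CO3 (chrM:9961-9990, plus): tgtatgtctccatctattgatgagggtctT
MT-ND4 (chrM:12108-12137, plus): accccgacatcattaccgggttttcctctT
MT-CO1 (chrM:7416-7445, plus): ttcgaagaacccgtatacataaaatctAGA
MT-ND6 (chrM:14149-14178, minus): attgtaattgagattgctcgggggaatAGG
MT-CO1 and MT-ND6 end in AGA and AGG, the only genes of the 13 that do. The 6 genes with an incomplete stop codon had log2 fold changes from 1.14 to 2.22 (median 1.98), and the 7 with a full triplet from 1.44 to 2.91 (median 1.96), so the ranges overlapped.

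**Figure D2:**
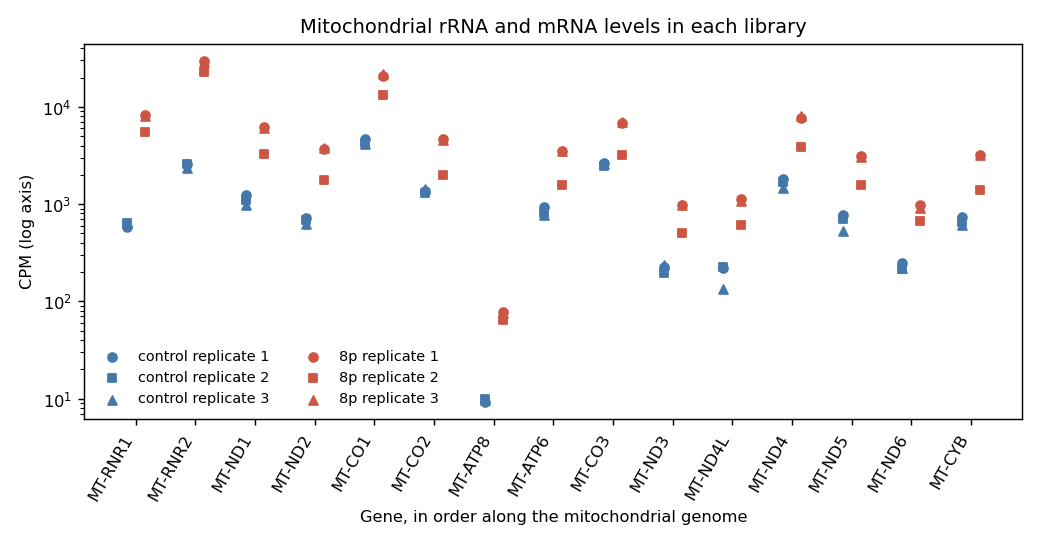
CPM (log axis) of the 2 rRNAs and 13 mRNAs in each library, genes in order along the mitochondrial genome; blue marks control and red marks 8p, with a symbol for each replicate. For each of these genes the 3 red points lie above the 3 blue points, and the square of 8p replicate 2 is the lowest red point.

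Complex I, the NADH dehydrogenase that starts the respiratory chain, takes 7 mitochondrial subunits, and their mRNAs moved within a narrow range, from 1.90 to 2.29 on the log2 scale. MT-ND1 (3307 to 4262, plus strand), a membrane subunit next to the quinone site, stood at 1247, 1099 and 989 CPM in controls and at 6234, 3242 and 6052 CPM with 8p (log2 fold change 2.22, SE 0.18, edgeR adjusted p = 2.56e-08). MT-ND4 (10760 to 12137, plus strand), a proton-pumping subunit, went from 1826, 1681 and 1451 CPM to 7743, 3851 and 7961 CPM (1.98). In both genes 8p replicate 2 lay between the other 8p libraries and the controls. The related pumping subunits MT-ND2 and MT-ND5 had log2 fold changes of 2.18 and 1.96, and MT-ND3 one of 1.91. MT-ND4L, whose last 7 bases are also the first of MT-ND4, had the largest change of the 7 (2.29), and it varied more in controls, with 219, 226 and 132 CPM. Its counts were 12.0%, 13.5% and 9.13% of those of MT-ND4 in controls and 14.5%, 15.9% and 13.6% with 8p, and the 2 genes share a transcript.

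MT-ND6 (ENSG00000198695; 14149 to 14673, minus strand) is the only mRNA encoded on the minus strand. The bases of its mRNA show this, with 35.6% G against 6.28% to 16.2% in the 12 plus-strand mRNAs. It stood at 250, 214 and 218 CPM in controls and at 980, 670 and 902 CPM with 8p, a log2 fold change of 1.90 (SE 0.12, edgeR adjusted p = 6.09e-10). Its 8p libraries were closer together than those of MT-ND1 or MT-ND4. The count ratio of MT-ND6 to the plus-strand mRNAs was 0.0163, 0.0152 and 0.0162 in controls and 0.0158, 0.0203 and 0.0144 with 8p. The groups overlapped, with a log2 difference of 0.07 (SE 0.15, exact permutation p = 0.9) that was −0.08 without 8p replicate 2. Whether counting used strand is not stated; without strand, reads of MT-ND6 and of the opposite precursor cannot be told apart.

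MT-CYB (14747 to 15887, plus strand), cytochrome b and the only mitochondrial subunit of complex III, went from 735, 648 and 603 CPM to 3186, 1387 and 3209 CPM. The log2 fold change was 1.97 (SE 0.22, edgeR adjusted p = 8.47e-07). The value of 8p replicate 2 was above all controls and well below both other 8p libraries.

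The 3 subunits of cytochrome c oxidase (complex IV) rose by unequal amounts. MT-CO1 (ENSG00000198804; 5904 to 7445, plus strand), the catalytic core with heme and copper, stood at 4620, 4247 and 4154 CPM in controls and at 20874, 13224 and 21589 CPM with 8p (log2 fold change 2.10, SE 0.15, edgeR adjusted p = 3.60e-09). MT-CO2 (7586 to 8269, plus strand), which takes electrons from cytochrome c, went from 1379, 1296 and 1435 CPM to 4621, 1990 and 4527 CPM (1.44). MT-CO3 (ENSG00000198938; 9207 to 9990, plus strand), a subunit that supports the core, went from 2654, 2463 and 2587 CPM to 6852, 3202 and 6958 CPM. This was the smallest change of any mRNA, at 1.14 (SE 0.20, edgeR adjusted p = 9.21e-05), and 8p replicate 2 was only slightly above the controls. As a share of all mitochondrial mRNA counts, MT-CO3 was lower in each 8p library than in each control, with 17%, 17.2% and 18.8% in controls and 10.9%, 9.52% and 10.9% with 8p. MT-CO1 was higher in each, with 29.6%, 29.7% and 30.2% and then 33.1%, 39.3% and 33.9%.

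Complex V has 2 mitochondrial subunits, MT-ATP8 and MT-ATP6, which form part of the membrane sector of ATP synthase. They are read from a single mRNA in overlapping frames, and the 46 bases that belong to both genes are shown because they tie the 2 together, with the start codon of MT-ATP6 and the stop codon of MT-ATP8 in capitals.
MT-ATP8/MT-ATP6 (chrM:8527-8572, plus): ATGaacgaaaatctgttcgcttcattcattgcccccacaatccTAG
MT-ATP8 (8366 to 8572) stood at 9.15, 9.95 and 9.69 CPM in controls and at 77.4, 64.2 and 75.2 CPM with 8p, the largest change among the mRNAs (log2 fold change 2.91, SE 0.10, edgeR adjusted p = 1.25e-12). MT-ATP6 (8527 to 9207) went from 929, 814 and 768 CPM to 3526, 1587 and 3473 CPM (1.77, SE 0.21, edgeR adjusted p = 1.59e-06). The 8p libraries were close together for MT-ATP8 and far apart for MT-ATP6. Counts of MT-ATP8 were 0.985%, 1.22% and 1.26% of those of MT-ATP6 in controls and 2.20%, 4.04% and 2.16% with 8p, without overlap between groups. How reads over the shared bases were counted is not stated. Since the 2 genes share an mRNA, their unequal changes are those of counts and not of separate mRNAs.

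By complex, the makeup of the mitochondrial mRNA differed by small amounts. Complex I mRNAs held 33.8%, 33.6% and 30.4% of mitochondrial mRNA counts in controls and 37.9%, 36.2% and 37.4% with 8p, without overlap. Complex IV mRNAs held 55.5%, 56.1% and 59.5% and then 51.3%, 54.7% and 52.0%, also without overlap. The log2 ratio of complex I to complex IV was higher by 0.31 (SE 0.09, exact permutation p = 0.1, adjusted 0.175), or by 0.48 when counts were divided by gene length. The groups overlapped in the shares of complex III (4.55% ± 0.163 and 4.74% ± 0.535; exact p = 0.6) and complex V (5.82% ± 0.181 and 5.40% ± 0.433; exact p = 0.2).

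Per kilobase of gene, the order of levels changed at its top. In controls MT-CO3 led with 3276 ± 124 CPM per kilobase, followed by MT-CO1 (2815 ± 160), MT-CO2 (2003 ± 102) and MT-RNR2 (1598 ± 90.8). MT-ATP6 (1229 ± 122), MT-ND4 (1199 ± 137) and MT-ND1 (1163 ± 135) came next and differed by less than their spread. MT-RNR1 (646 ± 30.9 CPM per kilobase) was level with MT-ND2, MT-ND4L and MT-ND3. With 8p MT-RNR2 led with 17342 ± 2314 CPM per kilobase, ahead of MT-CO1 (12038 ± 3007). MT-RNR1 (7613 ± 1634) and MT-CO3 (7233 ± 2727) followed and did not differ beyond their spread. MT-ATP8 was lowest of the 15 in both groups, at 46.4 ± 1.98 and 349 ± 34.2 CPM per kilobase.

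Among the 22 tRNA genes, 18 were tested and 17 were higher with 8p; of the 9 that reached the minimum in all control libraries, 8 were higher. tRNAs are short, folded and end in CCA without a poly(A) tail, and their genes also lie inside the precursors, so reads counted here may come from mature tRNA or from precursor. The genes of 5 tRNAs are shown, with the anticodon in capitals. They include the most counted tRNA (MT-TC), the called member with the smallest change (MT-TP) and the tested gene that was not called (MT-TH). The others, MT-TV and MT-TK, reached the filter's minimum in each 8p library but not in each control.
MT-TC, cysteine (chrM:5761-5826, minus): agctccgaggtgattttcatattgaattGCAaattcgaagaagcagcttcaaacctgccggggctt
MT-TP, proline (chrM:15956-16023, minus): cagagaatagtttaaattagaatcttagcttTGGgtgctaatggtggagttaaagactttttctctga
MT-TV, valine (chrM:1602-1670, plus): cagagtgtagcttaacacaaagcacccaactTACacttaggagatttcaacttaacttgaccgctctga
MT-TK, lysine (chrM:8295-8364, plus): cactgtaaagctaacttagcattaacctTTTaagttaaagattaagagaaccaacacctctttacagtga
MT-TH, histidine (chrM:12138-12206, plus): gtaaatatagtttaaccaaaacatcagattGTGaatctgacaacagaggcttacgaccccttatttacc

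Most tRNA counts fell on minus-strand genes, of which there are 8 among the 22. These genes held 79.7%, 85.8% and 82.2% of tRNA counts in controls and 76.3%, 74.6% and 76.1% with 8p. Whether counting used strand is not stated. Without strand, their reads and those of the plus-strand precursor cannot be told apart, so a predominance of minus-strand RNA was not shown. MT-TC stood at 45.8, 39.7 and 47.3 CPM in controls and at 207, 104 and 239 CPM with 8p (log2 fold change 2.05, SE 0.21, edgeR adjusted p = 2.70e-07). MT-TN, for asparagine, lies beside it and went from 18, 20.9 and 22.9 CPM to 108, 42.6 and 94.8 CPM (1.99). MT-TP went from 28.4, 27.5 and 28.5 CPM to 70.1, 37.3 and 69.8 CPM, the smallest called change of any member, at 1.07 (SE 0.17, edgeR adjusted p = 4.32e-05). In these 3 genes 8p replicate 2 was the lowest 8p library and still above the controls.

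The tRNA that separates the rRNA genes, MT-TV, went from 14, 12 and 5 counts (0.590, 0.561 and 0.272 CPM) to 174, 203 and 161 counts (11.6, 12.2 and 10.9 CPM). Its 8p libraries lay close together and included replicate 2. Its fitted log2 fold change was 4.55 (SE 0.25), above those of the rRNAs on either side. MT-TV reached the filter's minimum in 1 control library and passed through the 8p libraries. Its call is therefore no separate evidence, and with so few control counts the size is imprecise. MT-TL1, for leucine, sits between MT-RNR2 and MT-ND1, and its change of 2.44 (SE 0.28) was nearer to that of MT-ND1 (2.22) than to that of MT-RNR2 (3.44). These differences between genes were not tested.

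Several tRNAs with few control counts had large fitted changes. MT-TM, for methionine, had 4, 4 and 1 counts in controls and 78, 47 and 98 with 8p (log2 fold change 5.04, SE 0.47). MT-TK had 3, 0 and 5 counts and then 46, 51 and 36 (4.42, SE 0.55), and the fit gave 3.82 to 5.27 when single libraries were left out. MT-TW, for tryptophan, had 2, 3 and 3 counts and then 33, 29 and 30 (3.90), and MT-TQ, for glutamine, 2, 2 and 3 counts and then 26, 34 and 18 (3.83). With so few control counts the sizes of these changes are imprecise. MT-TI, for isoleucine, shares 3 bases with MT-TQ on the opposite strand and rose by 1.78 (SE 0.45), from 14, 8 and 10 counts to 22, 17 and 41. MT-TM, MT-TK, MT-TW, MT-TQ and MT-TI all passed the low-count filter through the 8p libraries, so their calls are no separate evidence.

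The remaining tested tRNAs rose by 1.11 (MT-TR, arginine) to 2.98 (MT-TY, tyrosine) on the log2 scale. Between them were MT-TT for threonine (1.46), MT-TG for glycine (2.03), MT-TE for glutamate (2.46), MT-TD for aspartate (2.87) and MT-TS1 for serine (2.90). Of these, MT-TG, MT-TE and MT-TS1 reached the filter's minimum in 2 control libraries each and passed through the 8p libraries. Their calls are therefore no separate evidence. MT-TH was the tested member that did not pass. It had 20, 19 and 24 counts in controls (0.843, 0.888 and 1.31 CPM) and 14, 48 and 16 with 8p (0.932, 2.88 and 1.08 CPM). The higher mean with 8p came from replicate 2 alone, and the log2 fold change of 0.71 (SE 0.44, edgeR adjusted p = 0.157) became −0.03 without it.

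Another 4 tRNAs were not tested. MT-TS2, for the other serine codons, had no count in any library. MT-TF, for phenylalanine, had 3 counts over the control libraries and 11 over the 8p libraries, a ratio of 5.00 (exact 95% binomial interval 1.32 to 27.9, scaled to library size). MT-TL2, for the other leucine codons, had 7 and 16 counts (ratio 3.12, interval 1.21 to 8.96). MT-TA, for alanine, had 1 and 13 counts (ratio 17.7, interval 2.66 to 754). These intervals cover counting error only.

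**Figure D3:**
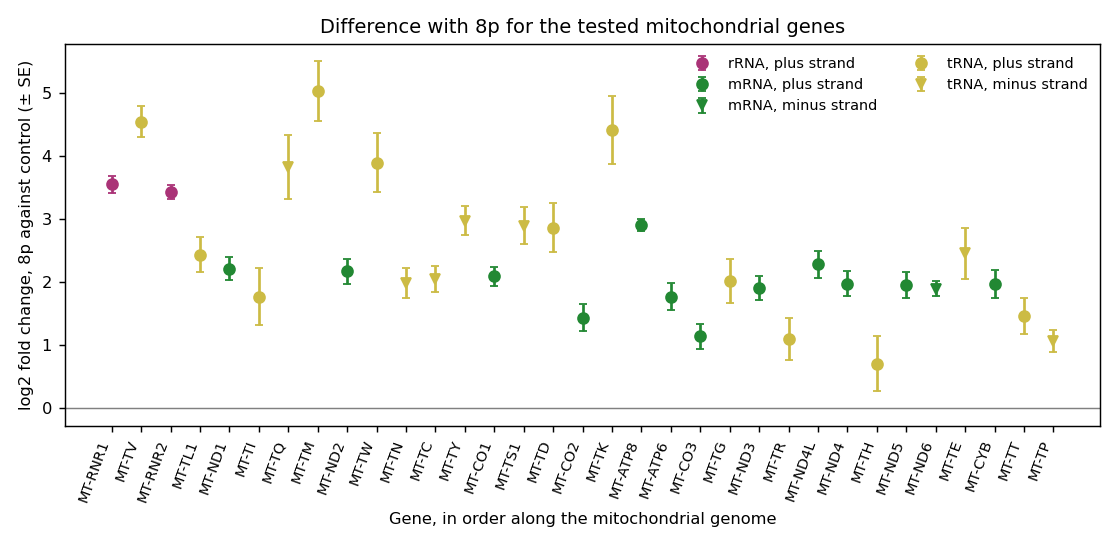
log2 fold change of 8p against control with its SE for the 33 tested genes, in order along the mitochondrial genome; colours mark rRNA, mRNA and tRNA, and triangles mark the minus strand. The rRNAs lie at 3.56 and 3.44, the mRNAs between 1.14 and 2.91, and the tRNAs spread from 0.71 (MT-TH) to 5.04 (MT-TM).

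The 8p libraries were not alike in these RNAs. In 27 of the 33 tested genes 8p replicate 2 was lower than the mean of 8p replicates 1 and 3, with a median log2 ratio of −0.85. Over all 13822 genes, with 0.5 CPM added to each value, the median ratio was −0.002 and the 5th and 95th percentiles were −0.61 and 0.47. On that same scale the ratio was −0.5 or less for 21 members and for 7.31% of all genes. With 1 library on this side, the difference has no replicate check.

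Within 8p replicate 2, the members differed from each other, with overlap between the classes. The plus-strand mRNAs had a median log2 ratio of −1.01 to the other 8p libraries, and the lowest were MT-CYB (−1.21) and MT-CO2 (−1.20). MT-CO1 (−0.68) and MT-ATP8 (−0.25) were less reduced than the rest of that group. MT-ND6 on the minus strand was at −0.49, MT-RNR1 at −0.58 and MT-RNR2 at −0.35. Among tRNAs the ratio ran from −1.55 (MT-TD) to 1.52 (MT-TH). MT-TC, MT-TN and MT-TL1 lay with the mRNAs at −1.10, −1.25 and −1.27. MT-TV (0.12), MT-TK (0.16), MT-TG (0.24), MT-TS1 (0.43) and MT-TQ (0.47) were not lower in this library. All of these passed the low-count filter through the 8p libraries. MT-TK, MT-TG and MT-TQ had only 18 to 51 counts in each 8p library, so their ratios carry a large counting error.

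Against the control mean, 8p replicate 2 was higher for each of the 33 tested genes, but by amounts that differed between them. Its log2 ratio to the control mean was 3.20 for MT-RNR2 and 3.15 for MT-RNR1, while 8p replicates 1 and 3 together gave 3.55 and 3.73. For MT-CO3 it was 0.32 against 1.43, and for MT-CO2 0.54 against 1.74. For MT-ND6 it was 1.56 against 2.05. In the fit without that library, 32 members were higher, with MT-CO3 at 1.40 and MT-RNR2 at 3.52.

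**Figure D4:**
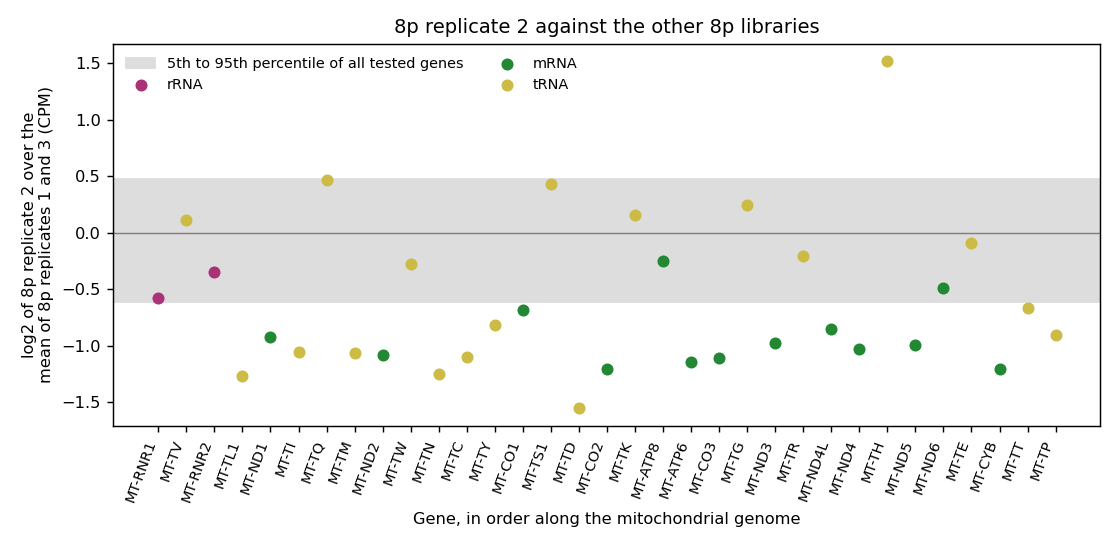
log2 ratio of CPM in 8p replicate 2 to the mean of 8p replicates 1 and 3 for the 33 tested genes, in order along the mitochondrial genome; the grey band spans the 5th to 95th percentile of all tested genes (−0.61 to 0.47, with 0.5 CPM added). Of the 13 mRNAs, MT-ATP8 (−0.25) and MT-ND6 (−0.49) lie inside the band with both rRNAs, and the other mRNAs lie below it.

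Nuclear copies of mitochondrial DNA can take reads from these genes. Of 407 nuclear genes named as such copies, 53 had any count and 3 had at least 100 counts over the 6 libraries. These 3 lie near each other on chromosome 1 (GRCh38) and were 98.2% to 98.6% identical to their mitochondrial counterparts. MTATP6P1 (633696 to 634376, plus strand) had 1688, 2049 and 1313 counts in controls and 4380, 4143 and 3700 with 8p, which is 7.66%, 11.8% and 9.30% of the counts of MT-ATP6 in controls and 8.27%, 15.6% and 7.19% with 8p. MTND2P28 (629640 to 630683) had 985, 635 and 433 counts and then 2710, 720 and 2554, with 8p replicate 2 close to the controls. MTCO1P12 (631074 to 632616) had 335, 306 and 219 counts and then 1255, 962 and 1014, at most 0.436% of those of MT-CO1. All 3 were called higher with 8p (log2 fold changes 1.73, 2.05 and 2.37 in that order). Adding their counts to the mitochondrial genes left the log2 ratio of group means at 1.77 for MT-ATP6, 2.17 for MT-ND2 and 2.10 for MT-CO1.

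Nuclear genes for the same complexes were mostly lower with 8p, set beside 36.9% lower among all genes tested. Of 37 tested nuclear subunits of complex I, 28 were lower and 3 higher with 8p (median log2 fold change −0.87); the largest falls were those of NDUFAB1 (−2.38), NDUFS5 (−1.86) and NDUFA6 (−1.74), and the genes that rose were NDUFA13 (1.33), NDUFA7 (1.2) and NDUFB5 (0.47). NDUFA7, with 0.59, 0.327 and 0.816 CPM in controls, passed the low-count filter through the 8p libraries, and with a filter of 1 CPM in 3 libraries 2 complex I genes were higher. NDUFA13 was also low, at 1.81, 1.59 and 1.31 CPM in controls and 5.12, 3.9 and 2.9 CPM with 8p. Of 9 subunits of complex III 8 were lower, led by UQCRQ (−1.99). All 11 nuclear subunits of complex IV were lower, led by COX7B (−1.70) and COX7A2 (−1.65). Of 18 genes of complex V 16 were lower, led by ATP5MC1 (−2.41). The 7, 1, 3 and 2 mitochondrial mRNAs of the same complexes were all higher.

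The balance of the 2 genomes was taken as a ratio of summed CPM. For complex I the mitochondrial to nuclear ratio was 1.51, 1.31 and 1.02 in controls and 12.1, 5.92 and 12.0 with 8p. For complex III it was 0.238, 0.201 and 0.182 and then 1.71, 0.735 and 1.79. For complex IV it was 2.97, 2.60 and 2.32 and then 18.2, 10.9 and 19.4. For complex V it was 0.175, 0.149 and 0.130 and then 1.14, 0.530 and 1.14. In each complex the 8p libraries lay above the controls, with replicate 2 the lowest of them. Such ratios compare counts and not molecules, since gene lengths were not taken into account.

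**Figure D5:**
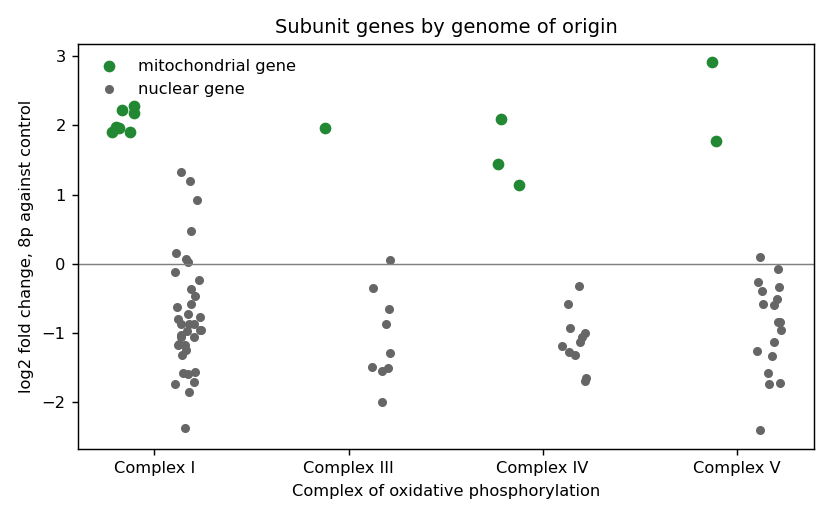
log2 fold change of 8p against control for subunit genes of complexes I, III, IV and V; green points are mitochondrial genes and grey points are nuclear genes, spread sideways at random to show them. All green points lie above 1, and most grey points lie below 0.

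Nuclear genes that transcribe or maintain mitochondrial DNA, or handle its RNA, were mostly lower. Of 22 tested transcription and replication factors 15 were lower and 4 higher (median −0.82). RNASEH1, which removes RNA from hybrids with DNA, fell by 2.30 on the log2 scale, MRPL12, a ribosomal protein reported to bind the mitochondrial RNA polymerase, fell by 2.15, and TFB2M, the transcription initiation factor, fell by 1.83, from 58.2 ± 6.16 to 16.3 ± 0.681 CPM. The polymerase itself, POLRMT, went from 122 ± 5.03 to 68.7 ± 4.45 CPM, and TFAM, which packages the DNA and starts transcription, from 114 ± 8.20 to 47.2 ± 2.89 CPM; both were chosen as core machinery after their values were seen. The largest rises were those of POLG2 (0.98), the accessory subunit of the DNA polymerase, MTERF2 (0.94) and TOP1MT (0.42), the mitochondrial topoisomerase.

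Of 42 tested genes for processing, tailing, modification and decay of mitochondrial RNA, 37 were lower and 2 higher (median −0.95). PNPT1, the exonuclease that degrades mitochondrial RNA, went from 118 ± 3.88 to 24.5 ± 0.325 CPM (log2 fold change −2.26). SLIRP, which with LRPPRC protects the mRNAs, went from 73.1 ± 9.16 to 16.1 ± 1.97 CPM (−2.18), and MRM1, an rRNA methyltransferase, fell by 1.98. The genes that rose were ANGEL2 (0.85) and KIAA0391 (0.68), the latter the nuclease subunit of mitochondrial RNase P. Of other named parts of the machinery, chosen for their roles after their values were seen, the poly(A) polymerase MTPAP had a log2 fold change of −1.10, the helicase SUPV3L1 that works with PNPT1 one of −1.66, the tRNA 3′ nuclease ELAC2 one of −1.41, the RNase P subunit TRMT10C one of −1.77 and LRPPRC one of −0.76. Other members of this list, named for contrast, changed little, such as MTO1 (−0.28), GRSF1 (−0.20) and FASTK (0.01). The share of genes lower in these lists stands beside 36.9% of all genes tested.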

How the data were processed

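The table deposited by the authors holds raw read counts per gene for 6 libraries, with gene length in bases beside them; the counts are whole numbers with a different total in each library. Per the submitters' processing notes, HISAT2 2.0.5, featureCounts 1.5.0-p3, DESeq2 1.20.0, edgeR 3.22.5 and build hg38 were used; the strand setting and the handling of reads with several matches are not given in the sources used here. All 37 mitochondrial genes equalled GENCODE release 29 in position and strand, and its transcript sequences were used.

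Counts were tested in R 4.3.3 with edgeR 4.0.16 (filterByExpr, TMM factors, quasi-likelihood F test, group as the only term), adjusted by Benjamini-Hochberg over 13822 genes and called under 0.05. SE is the size of the log2 fold change divided by the square root of F. TMM scaling rests on an unchanged majority of genes, and no spike-in is recorded. Here 74.7% of genes tested were called, 37.9% higher and 36.9% lower, so that condition was not met at this threshold. Single values were compared by exact permutation over libraries, which with 3 against 3 cannot go below 0.1. Alternatives were DESeq2 1.42.0, limma-voom (limma 3.58.1), 4 scalings, 2 filters, 2 thresholds, a replicate block and each library left out. The pipeline was tested on simulated counts.

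No pairing by the labels' replicate numbers was visible: correlations of same-numbered deviations were −0.007, −0.018 and −0.043. With 3 libraries per group this cannot show that the cultures were unpaired. Members, lists and tests were chosen with earlier results of these data known. All members are named; from each nuclear list up to 3 called genes with the largest rise and up to 3 with the largest fall could be named, and nuclear copies with at least 100 counts.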

Additional observations from a re-analysis of the deposited data

How the results depend on the processing

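The number of mitochondrially encoded genes higher with 8p was 32, and the number lower 0, under each of the 17 alternatives. Of these 32, 9 are tRNAs that passed the low-count filter through the 8p libraries, a route that favours genes higher with 8p. Of the 24 members that reached the minimum in all controls, 23 were higher in the fit given above. The 9 tRNAs also enter the values that follow. Of 495 values of single members under the alternatives, 494 kept their direction and their side of the threshold; the exception was MT-TH, which ran from −0.026 to 0.97 with single libraries left out and turned negative without 8p replicate 2. The replicate block gave 32 members higher as well. Of all genes it gave 5076 higher and 5014 lower, against 5232 and 5098 without it.

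A 2-fold minimum reduced the calls to 2883 higher and 2421 lower among all genes. In the nuclear lists it left 0 higher among the transcription and replication factors. Among the RNA processing genes it left 0 higher and 20 lower. In complexes I, III, IV and V it left 15, 5, 7 and 7 lower. Upper quartile scaling moved the median of all genes by 0.19 on the log2 scale and gave 5, 1 and 1 genes higher in complexes I, III and V, and 6240 of all genes higher against 4258 lower. Without a filter, 4 RNAs lacking a poly(A) tail were higher. The edgeR adjusted p values of that fit were far smaller, such as 2.90e-168 for MT-ND1 against 2.56e-08 with the filter. Its calls carry less weight for this reason. Over nuclear protein-coding counts, the rRNA share differed by 3.56 percentage points in place of 3.12. Divided by length, the log2 difference was 0.48 for complex I to complex IV and −0.21 for the share of complex IV. Members with under 10 control counts are limited by depth.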
